A study of Rattus norvegicus with 8 samples.

Results

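Nanoceria treatment was compared with no treatment in H9c2 cells over spaceflight and ground cultures together, and the comparison is described across genes. All 5 arrays of nanoceria-treated cells (2 from space and 3 from ground) were set against all 3 arrays of untreated cells (1 from space and 2 from ground), which is all 8 arrays used here. Of 23188 probe sets, 15037 genes were named and are described. H9c2 is a line of myoblasts from embryonic rat heart that can fuse into skeletal muscle-like myotubes. Cells at passage 6 to 12 were seeded at 35000 per square centimetre, placed in flight hardware on day 1, warmed to 37 °C from day 7 after travel in a pouch at 27 °C, and fixed on day 10. All groups were kept in a low-serum differentiation medium with insulin, transferrin and selenite. Treated cells also received 100 µg/ml of nanoceria, which are cerium oxide particles coated with fetal bovine serum, and untreated cells received none.

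The space groups were cultured aboard the International Space Station. The ground groups were cultured later in the same kind of hardware with the recorded flight temperatures, so gravity, launch and culture run cannot be told apart in the regime term. The ground repeat had 3 treated and 3 untreated units, and ground untreated replicate 2 was not analysed here. Untreated cells in space were measured on 1 array, with no replicate. Nothing in the labels says whether the numbered arrays of a group came from separate cultures, so a p-value here reflects the scatter among these arrays, which may be technical. H9c2 is 1 cell line, and the dose was 1 concentration.

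Cerium at the surface of such particles can switch between its oxidised and reduced states, and in the test tube the particles can remove superoxide and hydrogen peroxide. Cells take up particles of this kind largely by endocytosis and hold them in endosomes and lysosomes. Myoblasts answer oxidants chiefly through the transcription factor NRF2, which drives genes for glutathione, thioredoxin and quinone metabolism. When myoblasts differentiate they leave the cell cycle, so genes of replication, mitosis and muscle structure are common readouts of their state.

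Every difference below is the log2 intensity with nanoceria minus that without, ± its standard error (SE), from limma with regime as a term unless a regime is named. The fit weights ground by 64.3% and space by 35.7%. Over both regimes, 0 genes passed an adjusted p of 0.05 with limma and Benjamini-Hochberg adjustment, and no adjusted p lay below 0.32. With an unadjusted p below 0.05, 635 named genes (4.22%) lay higher with nanoceria and 870 (5.79%) lay lower, and 57.1% of all named genes had a difference above 0. Over all probe sets the shares were 3.77% higher and 5.86% lower. The shares of named genes are the background for each list below, and the median difference over all named genes was 0.04. The medians of the lysosome, fatty acid oxidation, DNA damage, heat shock, proteoglycan, growth factor, translation factor, neuron and fibroblast lists lay below 0 under cyclic loess. Those of the oxidant producing, leukocyte and cytosolic ribosomal lists lay at or above 0 with equal array medians, as did that of the clock list, so no direction is read from these 13 medians. A difference above 1 was seen for 30 genes and one below -1 for 114. No gene is called as changed. In the counts of lists below, a member is counted as higher or lower at an unadjusted p below 0.05 unless it is said to lie above or below 0, and members of a list beyond its 4 with the smallest p were picked after their values were seen.

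Arrays of treated and untreated cells did not overlap within ground or within space for 963 genes that were higher in both regimes (6.4%) and for 944 that were lower in both (6.28%). Genes in opposite directions without overlap numbered 512 (3.4%) that were higher on ground and lower in space, and 310 (2.06%) the other way round. All 5 treated arrays lay above all 3 untreated arrays for 385 genes (2.56%) and below them for 348 (2.31%). Genes at an unadjusted p below 0.05 were not spread evenly over brightness. In 5 equal bins by mean level, from dim to bright, 1.23%, 3.26%, 9.28%, 9.74% and 5.42% lay lower, and 1.96%, 2.43%, 3.82%, 5.99% and 6.91% lay higher. No detection measure came with the values, so whether dim genes were above background is unknown.

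Ground untreated replicate 3 stood apart from the other arrays in several lists. It held the lowest of the 8 values for 35 of 39 mitosis genes, 28 of 42 replication genes and 19 of 33 skeletal muscle genes, and the highest for 23 of 30 NRF2 targets, 24 of 37 lysosome genes and 18 of 27 endoplasmic reticulum chaperone and stress genes. Over all probe sets this array did not stand apart. Its correlations with the other arrays ran from 0.9587 to 0.9789, and those of ground nanoceria replicate 3 from 0.9587 to 0.9793. The counts and medians of lists that ground untreated replicate 3 moves are given with it and without it. The words "without replicate 3" below always mean without this array, and such values are not corrected values. Without it, 531 named genes (3.53%) lay higher and 673 (4.48%) lower at an unadjusted p below 0.05. Over the lists, 26 of 53 medians took the other sign when some single array was left out. Leaving out ground untreated replicate 1 instead gave medians of -0.38 for NRF2 targets, -0.223 for the lysosome list and 1.275 for mitosis. With only 2 untreated ground arrays, neither fit shows which of them is typical.

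The labelled cell type was checked by markers. Myod1, a myogenic determination factor, read 6.97 to 8.19 over the arrays, and Myog, the factor that commits myoblasts to fusion, read 6.25 to 9.89. Cardiac troponin I (Tnni3) read 6.12 to 6.52 and the cardiac factor Nkx2-5 read 6.95 to 7.41, and none of these has a detection call. Endothelial markers averaged 4.77 to 5.15 over the arrays, leukocyte markers 5.29 to 5.50, adipocyte markers 4.41 to 4.73, neuron markers 6.19 to 6.53, epithelium markers 6.23 to 6.61 and fibroblast markers 10.93 to 11.44. The dimmest of the 5 bins ended at 5.05, and 0 of 7 endothelial and 0 of 7 leukocyte markers reached an unadjusted p below 0.05, with median differences of 0.06 and -0.02. Among the others, Fabp4 (0.33 ± 0.12; 1 of 4 adipocyte markers), Map2 (-0.99 ± 0.38; 1 of 6 neuron markers), Cdh1 (0.39 ± 0.15; 1 of 5 epithelium markers) and Thy1 (0.70 ± 0.28; 1 of 7 fibroblast markers) reached it. The medians of these lists were 0.07, 0.03, 0.11 and 0.05, and without ground untreated replicate 3 neither Map2 nor Thy1 reached the threshold and the adipocyte median was 0.27. Of the muscle lists described below, the smooth muscle list averaged 9.73 to 10.64 over the arrays, skeletal muscle 6.97 to 8.39 and cardiac muscle 6.51 to 6.91. In bulk RNA, a change in the share of cells of 1 state and a change of RNA per cell cannot be told apart.

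Of the leading genes, those that lay lower with nanoceria are described first. Trmt13, a methyltransferase that modifies the acceptor stem of transfer RNA, read 7.26 in the untreated space array, 6.12 and 6.41 in the treated space arrays, 6.72 and 6.65 in the untreated ground arrays and 5.02, 4.87 and 4.92 in the treated ground arrays. All 5 treated arrays lay below all 3 untreated arrays, and the difference was -1.48 ± 0.17 (limma, adjusted p = 0.32). Vps13a, a lipid transfer protein at membrane contact sites that is mutated in chorea-acanthocytosis, read 7.30 untreated and 6.61 and 6.27 treated in space. On ground it read 6.89 and 6.99 untreated and 4.89, 5.24 and 4.90 treated. Its groups did not overlap either, at -1.55 ± 0.23.

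Sclt1, a protein of the distal appendages of the mother centriole, read 7.63 untreated against 6.63 and 6.39 treated in space, and 7.43 and 6.66 untreated against 5.36, 5.59 and 5.28 treated on ground. Its difference was -1.45 ± 0.20, with no overlap between treated and untreated arrays. Orc2, a subunit of the origin recognition complex, read 8.13 against 7.58 and 7.63 in space and 8.03 and 7.93 against 6.38, 6.45 and 6.10 on ground (-1.26 ± 0.23). Marchf7, a membrane-associated ubiquitin ligase, was the last of the 15 leading lower genes with all 5 treated arrays below all 3 untreated ones (-0.91 ± 0.16). For the others, treated and untreated arrays were apart within each regime but overlapped across regimes.

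Among those others were the zinc finger genes Zfp317 (-1.59 ± 0.22) and Zfp347 (-1.45 ± 0.24), and Lrif1, a partner of heterochromatin protein (-1.77 ± 0.32). Cacybp, which binds calcyclin and a ubiquitin ligase, lay at -1.28 ± 0.20. Nek1, a kinase of cilia and DNA repair, lay at -0.84 ± 0.14 and Chm, the Rab escort protein that brings Rab proteins to their lipid anchor, at -0.92 ± 0.16. Casp12, a caspase of the endoplasmic reticulum, was at -0.93 ± 0.17 and Mllt3, a reader of acylated histones, at -0.78 ± 0.13. Garin1b (-0.94 ± 0.17) and Mphosph10, part of the small ribosomal subunit processome (-0.64 ± 0.12), completed the 15. In each of the 8 fits that left out 1 array, all 15 differences stayed below 0. The one nearest 0 was -0.587 (Mphosph10). These genes were selected by p on the same arrays, which makes this likely. The fit without the untreated space array is the ground comparison alone.

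Leading genes in the other direction had smaller differences. Stk38l, a kinase of the NDR family in the Hippo pathway, read 6.32 untreated against 7.11 and 7.07 treated in space, and 7.41 and 7.17 untreated against 8.25, 8.34 and 8.53 treated on ground. The groups did not overlap within a regime, but the treated space arrays lay below the untreated ground arrays. Its difference was 0.97 ± 0.13 (limma, adjusted p = 0.32). Lmna, which encodes lamins A and C of the nuclear lamina, read 10.88 against 11.67 and 11.61 in space, and 10.85 and 11.47 against 12.39, 12.21 and 11.96 on ground. All of its treated arrays lay above all untreated ones, at 0.93 ± 0.17.

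Chaf1b, a subunit of chromatin assembly factor 1, read 8.94 against 9.69 and 9.36 in space and 9.07 and 8.70 against 10.26, 10.00 and 9.94 on ground (0.97 ± 0.18). Sdc1, a cell surface heparan sulphate proteoglycan, read 10.04 against 10.73 and 10.54 in space and 10.32 and 10.08 against 11.07, 10.86 and 11.05 on ground (0.72 ± 0.13). In both genes the treated arrays lay above all untreated arrays. The same held for the integrin gene Itgb5 (0.61 ± 0.12), Nfatc2ip (0.74 ± 0.14), the mitotic kinesin gene Kif18b (1.27 ± 0.27), the TGF-beta co-receptor gene Eng (0.57 ± 0.13), Stk19 (0.69 ± 0.16) and Map7d1 (0.55 ± 0.13).

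Groups overlapped across regimes, but not within them, for H2ax, the histone variant marked at DNA breaks (0.84 ± 0.17), the tubulin gene Tubb6 (0.83 ± 0.19), the Rab GTPase activator Tbc1d10a (0.65 ± 0.15), the splicing gene Sf3b4 (0.81 ± 0.19) and the proteasome gene Psmd3 (0.59 ± 0.14). All 15 differences stayed above 0 in each fit that left out 1 array, the lowest at 0.478 (Map7d1), which their selection makes likely. These 30 genes were selected by p, so their values are a description.

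**Figure D1:**
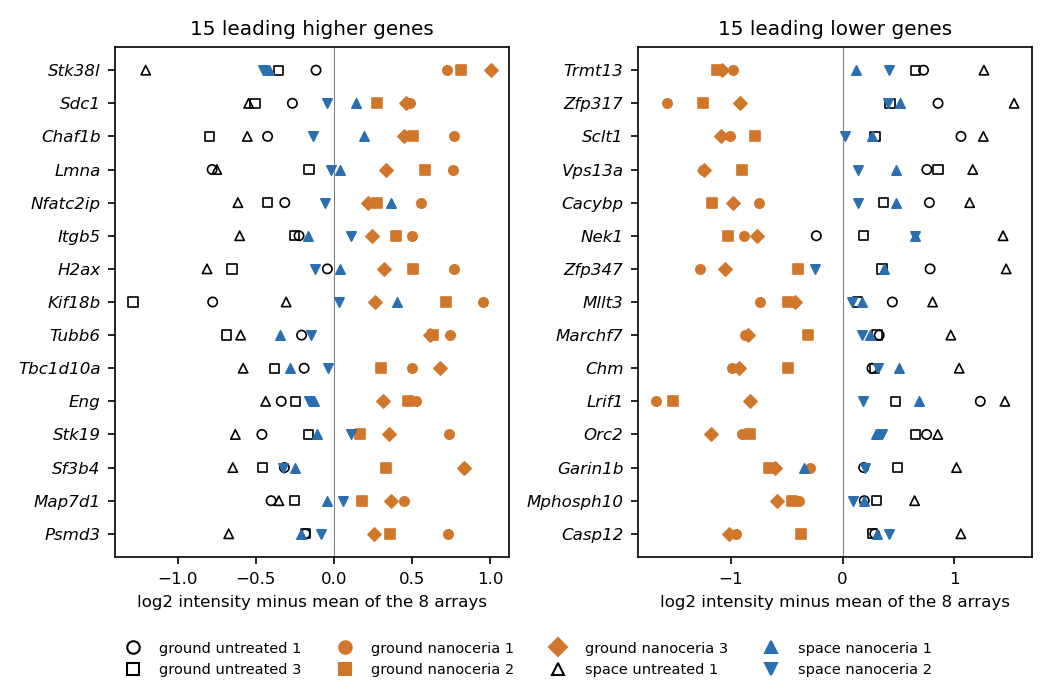
Each row is a gene, with the 15 of smallest p in each direction, and each point is 1 array as log2 intensity minus the gene's mean over the 8 arrays. Open symbols are untreated arrays, orange ground nanoceria and blue space nanoceria. For Trmt13 and Lmna every treated point lies on 1 side of every untreated point, whereas for Stk38l the treated space arrays overlap the untreated ground arrays.

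The promoters of the leading gene in each direction are shown for their content of CG dinucleotides, which are common in the promoters of widely expressed genes. The 250 bases before the start, from RefSeq on build GRCr8, are printed 5′ to 3′ with each CG pair in capitals, for Trmt13 (chr2:207231702-207231951, minus strand, 14 CG pairs) and Stk38l (chr4:181364701-181364950, plus strand, 26 CG pairs).
Trmt13: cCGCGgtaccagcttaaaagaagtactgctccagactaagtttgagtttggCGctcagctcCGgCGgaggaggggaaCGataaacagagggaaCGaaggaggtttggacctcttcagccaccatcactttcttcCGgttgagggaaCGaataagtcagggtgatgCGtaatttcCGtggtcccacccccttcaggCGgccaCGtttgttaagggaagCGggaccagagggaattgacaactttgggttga
Stk38l: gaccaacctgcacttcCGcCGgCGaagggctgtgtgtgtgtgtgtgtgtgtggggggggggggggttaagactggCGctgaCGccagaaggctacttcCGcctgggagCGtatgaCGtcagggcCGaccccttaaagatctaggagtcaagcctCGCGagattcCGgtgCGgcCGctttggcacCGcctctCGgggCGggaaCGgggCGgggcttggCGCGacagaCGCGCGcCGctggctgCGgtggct
Over the 12435 named genes with a promoter in that table, the median was 12 CG pairs and 57.2% G and C. Genes at an unadjusted p below 0.05 had medians of 15 pairs and 59.2% where higher (521 genes) and 17 pairs and 60.4% where lower (717 genes). Both directions lay above all named genes on this measure. Genes at that threshold were also more frequent among brighter genes, as given above, and the part of brightness was not tested.

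A further set of genes was ranked by the smaller of its differences within the regimes, among genes without overlap in either. The sterol reductase gene Dhcr7 led the higher ones, at 1.25 on ground and 1.13 in space, and was followed by Pkmyt1, a kinase that holds CDK1 inactive, at 1.01 and 0.90. H2ac4, a replication-dependent histone, lay at 0.81 and 0.93, the muscle fatty acid binding protein gene Fabp3 at 0.73 and 0.93, Casp9, the initiator caspase of the mitochondrial pathway, at 0.85 and 0.71, and Tk1, cytosolic thymidine kinase, at 1.53 and 0.68. On the lower side the set held Zfp54 (-1.31 and -1.16), Jade3, part of a histone acetyltransferase complex (-1.15 and -1.35), Gpcpd1, a glycerophosphocholine phosphodiesterase (-2.47 and -1.08), Eqtn (-1.38 and -1.06), the selenium transport protein gene Selenop (-1.05 and -1.19) and the SRC family kinase gene Yes1 (-1.57 and -1.03). Gpcpd1 read 7.40 untreated against 6.12 and 6.51 in space, and 7.13 and 8.48 against 5.18, 6.29 and 4.54 on ground. Its ground arrays spread widely in each group, without overlap. The rest of this set also stood among the leading genes above, and all of it was selected on both regimes, so no test is given.

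The enzymes that remove superoxide and peroxide have the same substrates as nanoceria, and 1 of their 30 genes lay higher and 2 lower at an unadjusted p below 0.05, with a median of 0.06. Without replicate 3 there were 1 and 1, with a median of 0.14, and without ground nanoceria replicate 1 the median was -0.002. Sod1, the cytosolic superoxide dismutase, read 12.89 untreated against 12.85 and 12.96 in space, and 12.86 and 13.14 against 13.19, 12.90 and 12.93 on ground. The groups overlapped and the difference was 0.01 ± 0.13, with a sign that turned under cyclic loess (-0.07). Mitochondrial Sod2 was at 0.08 ± 0.17.

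Cat, catalase, read 11.95 against 11.91 and 12.00 in space and 11.95 and 13.17 against 11.79, 11.95 and 12.00 on ground. Only ground untreated replicate 3 lay apart, and the difference of -0.41 ± 0.27 became -0.015 without it. The glutathione peroxidase genes Gpx1 and Gpx4 were each at 0.27, ± 0.18 and ± 0.20. Selenop, which carries selenium between cells, read 5.92 against 4.81 and 4.64 in space and 5.06 and 6.55 against 4.78, 4.69 and 4.81 on ground, and its treated arrays lay below all untreated ones (-1.10 ± 0.29). Gpx7, a peroxidase of the endoplasmic reticulum, was at 0.51 ± 0.20 and the glutaredoxin gene Glrx3 at -0.31 ± 0.12.

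Of 30 NRF2 targets, 22 lay below 0 and 8 above, with 1 lower and 0 higher at an unadjusted p below 0.05 and a median of -0.17. Slc7a11, the cystine transporter that supplies glutathione synthesis, read 7.72 against 6.94 and 6.81 in space and 6.81 and 7.59 against 6.18, 6.80 and 4.94 on ground. The treated arrays lay below the untreated ones within each regime (-1.09 ± 0.39). Gclc, which makes the first bond of glutathione, was at -0.51 ± 0.23. Nqo1, a quinone reductase, read 11.78 against 11.93 and 12.14 in space and 12.18 and 12.98 against 12.24, 11.81 and 11.87 on ground, which overlapped (-0.30 ± 0.24). Hmox1, heme oxygenase 1, was at -0.09 ± 0.43.

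Without replicate 3, the NRF2 median was 0.10, with 23 of 30 above 0, 3 higher and 0 lower at that threshold, and Hmox1 was at 0.52, Nqo1 at 0.01 and Gclc at -0.23. Slc7a11 stayed at -0.84. The direction of this list therefore turned without ground untreated replicate 3, while without ground untreated replicate 1 the median was -0.38. In 11.1% of 27 NRF2 target promoters the antioxidant response element TGACNNNGC was found on either strand. It was found in 10.2% of 27457 promoters of the same length and in 11.5% of the 12435 promoters of named genes.

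Genes of the enzymes that make oxidants gave 0 higher and 1 lower of 19, with a median of -0.01, but 2 and 0 without replicate 3, with a median of 0.06. The lower gene was Maoa, a monoamine oxidase of the outer mitochondrial membrane, which read 9.12 against 8.92 and 9.29 in space and 9.71 and 10.87 against 8.58, 8.95 and 8.96 on ground (-0.94 ± 0.35, and -0.47 without replicate 3). Its space arrays overlapped. In the iron, copper and zinc list, 0 lay higher and 1 lower of 29, with a median of -0.07 that was 0.08 without ground untreated replicate 3. Ireb2, an iron-sensing repressor of messenger RNA, was that gene, at -0.90 ± 0.30 and at -1.29 on ground against -0.21 in space. Tfrc, the transferrin receptor, was at -0.44 ± 0.23 and the ferritin gene Fth1 at -0.12 ± 0.15.

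The route by which particles enter was represented by 36 endocytosis genes, of which 30 lay above 0, with 5 higher and 0 lower at an unadjusted p below 0.05 (13.9% against the 4.22% of all named genes). The list median was 0.17. Cavin3 and Cavin1 form the coat of caveolae, the flask-shaped pits of the plasma membrane. Cavin3 read 9.95 untreated against 10.02 and 10.45 in space, and 9.79 and 9.39 against 10.52, 10.45 and 10.40 on ground, at 0.66 ± 0.18. Cavin1 read 9.75 against 9.80 and 9.98 in space and 9.65 and 9.45 against 10.60, 10.45 and 10.14 on ground (0.59 ± 0.18). Neither gene overlapped within a regime, although 1 treated space array of each lay within 0.1 of the untreated one.

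The muscle caveolin gene Cav3 (0.48 ± 0.20), Pacsin3, which bends membranes at caveolae (0.41 ± 0.17), and the raft protein gene Flot1 (0.44 ± 0.19) were the others. The median was 0.21, with 6 genes higher, without ground untreated replicate 3. Of 37 lysosome genes, 0 lay higher and 0 lower, with a median of 0.02, and 7 lay higher without that array, with a median of 0.19. The leading member there was the cathepsin gene Ctsc (0.25 ± 0.14).

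Autophagy genes included 4 lower and 1 higher of 27, with a median of -0.06. Leaving out replicate 3 gave 2 and 1, with a median of 0.05. Rb1cc1, the scaffold of the kinase complex that starts autophagosomes, read 8.66 against 8.30 and 8.01 in space and 8.39 and 8.26 against 6.61, 7.00 and 6.51 on ground. It lay lower in both regimes without overlap, at -1.62 on ground and -0.50 in space (-1.22 ± 0.24). The cargo receptor gene Tax1bp1 (-0.83 ± 0.26) and the lipidation enzyme gene Atg3 (-0.59 ± 0.22) lay lower and Map1lc3a, which marks autophagosomes, higher (0.41 ± 0.16).

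Of 23 genes of cholesterol synthesis and uptake, 19 lay above 0, with 7 higher and 0 lower at an unadjusted p below 0.05, which is 30.4% against 4.22%. The median was 0.33, at 0.23 on ground and 0.52 in space. Srebf2, the transcription factor of the pathway, read 7.70 untreated against 8.62 and 8.42 in space and 7.51 and 8.35 against 8.79, 8.91 and 8.24 on ground. Treated space arrays lay above the untreated one, while 1 treated ground array lay below ground untreated replicate 3 (0.75 ± 0.23). Dhcr7, which completes cholesterol, read 5.46 against 7.46 and 5.71 in space and 5.75 and 6.06 against 7.54, 6.72 and 7.20 on ground. The treated space arrays lay far apart, the lower one close to the untreated array (1.20 ± 0.36).

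The mevalonate arm supplies the isoprenoid units of cholesterol. Mvk and Mvd, mevalonate kinase and decarboxylase, were at 0.44 ± 0.14 and 0.43 ± 0.14, Fdps, which makes farnesyl diphosphate, at 0.67 ± 0.22, the squalene synthase gene Fdft1 at 0.59 ± 0.26 and the sterol carrier gene Stard4 at 0.51 ± 0.22. Of the enzymes after squalene, Lss was at -0.05 ± 0.40, Sc5d at -0.12 ± 0.24 and Msmo1 at 0.53 ± 0.29, beside Dhcr7 above. Relative to the list's mean over 8 arrays, the untreated arrays lay at -0.38 in space and -0.34 and 0.08 on ground, and the treated ones at 0.35 and -0.11 in space and 0.36, 0.16 and -0.12 on ground. The median was 0.43, with all 23 genes above 0, without ground untreated replicate 3. Without the untreated space array it was 0.23, which is the ground median again, since no space comparison then remains. The letters of the sterol regulatory element searched for, TCACNCCAC on either strand, were found in 0 of 19 promoters of the list and in 0.976% of all promoters.

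In fatty acid and triglyceride synthesis, 0 lay higher and 2 lower of 30 at an unadjusted p below 0.05, namely the elongase gene Elovl6 (-0.69 ± 0.22) and Acaca, the committed enzyme of fatty acid synthesis (-0.32 ± 0.13), and the median was 0.12. The counts without replicate 3 were 2 higher and 1 lower, with a median of 0.24, and without ground untreated replicate 1 the median was -0.04. In fatty acid oxidation, 3 of 25 lay higher and 0 lower, with a median of 0.02 that was 0.19 without replicate 3 and -0.12 without ground untreated replicate 1. Acads, the short-chain dehydrogenase, was at 0.35 ± 0.14 and Cpt2, which imports acyl groups into mitochondria, at 0.29 ± 0.12. Ucp2, an inner membrane carrier that can lower mitochondrial oxidant output, read 8.19 against 8.40 and 8.63 in space and 8.96 and 9.44 against 10.05, 9.31 and 9.89 on ground. It overlapped on ground, at 0.47 ± 0.20.

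The nuclear lamina and LINC complex, which tie the nucleus to the cytoskeleton, had 4 of 14 genes higher and 0 lower (28.6%), with a median of 0.10, and 2 higher without replicate 3. Beside Lmna, the inner membrane genes Lemd2 and Emd lay at 0.55 ± 0.18 and 0.47 ± 0.19. Lmnb1, lamin B1, read 7.00 against 7.33 and 7.29 in space and 6.41 and 4.45 against 8.07, 7.27 and 6.93 on ground. The reading of 4.45 was ground untreated replicate 3, and the difference of 1.40 ± 0.50 was 0.69 without it. Lmna and Lemd2 were larger without that array, at 1.06 and 0.72. The linker genes Sun1 and Syne3 were at -0.02 and 0.00, and the prelamin protease gene Zmpste24 at -0.25. Nuclear pore genes gave 1 higher and 1 lower of 25, the outer ring gene Nup85 (0.82 ± 0.22) and the cytoplasmic filament gene Ranbp2 (-0.91 ± 0.31), with a median of 0.02. Without replicate 3 there were 1 and 2, with a median of -0.03.

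Of 14 tubulin genes 13 lay above 0, with 5 higher at an unadjusted p below 0.05 (35.7%), 0 lower and a median of 0.53. Tubb6 read 10.07 against 10.32 and 10.52 in space and 10.46 and 9.98 against 11.41, 11.30 and 11.28 on ground. Its ground difference was 1.11 and its space difference 0.34. Tubg1, the gamma-tubulin that nucleates microtubules, was at 0.63 ± 0.19, and the beta-tubulins Tubb2a, Tubb4b and Tubb5 at 0.51 ± 0.18, 0.58 ± 0.24 and 0.56 ± 0.24. Tubulin sequences are near-identical, so probe sets may share signal between these genes. The median was 0.72 on ground, 0.06 in space and 0.17 without ground untreated replicate 3, where 2 genes lay higher.

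Among 26 integrin and focal adhesion genes, 1 lay higher and 2 lower, with a median of 0.18 that was 0.09, with 1 and 1, without replicate 3. Itgb5 read 10.05 against 10.49 and 10.76 in space and 10.43 and 10.40 against 11.15, 11.05 and 10.90 on ground, at nearly the same difference in each (0.62 and 0.57). The focal adhesion kinase gene Ptk2 (-0.55 ± 0.15) and the adaptor gene Lims1 (-0.49 ± 0.19) lay lower.

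Transcripts driven by serum response factor and YAP gave 3 higher and 1 lower of 28, with 22 of 28 above 0 and a median of 0.17. Leaving out replicate 3 gave 1 and 1, with 17 of 28 above 0 and a median of 0.10. Fosl1, an AP-1 subunit, read 9.16 against 9.35 and 9.66 in space and 8.63 and 8.93 against 9.32, 9.29 and 9.22 on ground (0.44 ± 0.13). Srf itself read 8.54 against 8.61 and 8.56 in space and 8.45 and 7.98 against 9.38, 9.10 and 9.00 on ground, at 0.62 ± 0.21. The treated space arrays of Srf lay within 0.1 of the untreated one. Junb was at 0.44 ± 0.17 and the tissue factor gene F3 at -0.98 ± 0.31. The promoter of Srf is shown because serum response factor is known to bind its own promoter. Its 250 bases before the start (RefSeq, GRCr8, chr9:21923826-21924075, plus strand) carry the CArG box, the factor's site, in capitals at 2 positions that begin 81 and 61 bases before the start.
Srf: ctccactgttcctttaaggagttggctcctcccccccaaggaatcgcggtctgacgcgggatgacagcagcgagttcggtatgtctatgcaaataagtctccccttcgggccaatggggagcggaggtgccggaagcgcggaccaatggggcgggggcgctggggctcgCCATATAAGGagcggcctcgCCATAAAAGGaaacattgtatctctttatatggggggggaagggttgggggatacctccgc
A CArG box was found in 3 of 20 promoters of this list (15%) against 1.5% of all promoters, and the TEAD motif GGAATG, through which YAP acts, in 7 of 20 (35%) against 11.8%.

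Skeletal muscle genes lay above 0 in 29 of 33 cases, with 6 higher and 0 lower at an unadjusted p below 0.05 (18.2%), with a median of 0.38. Myoglobin (Mb), the oxygen store of muscle, read 5.57 against 5.99 and 5.66 in space and 5.80 and 5.30 against 6.27, 6.12 and 6.85 on ground (0.65 ± 0.23). The slow troponin gene Tnni1 read 7.16 against 7.02 and 7.14 in space and 7.32 and 6.93 against 8.54, 7.92 and 9.49 on ground. Its ground arrays were apart while the treated space arrays lay at or below the untreated one (0.95 ± 0.41).

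Tpm3 (0.29 ± 0.11), Ldb3 (0.36 ± 0.15) and Actn2 (0.52 ± 0.21), genes of the thin filament and Z-disc, also lay higher. Without ground untreated replicate 3 the median was 0.16, and 0 genes reached the threshold. By regime, the medians were 0.61 on ground and -0.06 in space. The E-box CAGCTG of myogenic factors was found in 9 of 28 promoters of the list (32.1%) against 11.9% of all.

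The acetylcholine receptor and triad list, which holds genes of the synapse and of calcium release, gave 2 higher and 0 lower of 28 and a median of 0.24, at 0.42 on ground and -0.11 in space. The counts without replicate 3 were 1 and 0, with a median of 0.16. The store-operated channel gene Orai1 was at 0.39 ± 0.13 and the calcium channel subunit gene Cacnb1 at 0.34 ± 0.12. Cardiac muscle genes gave 1 of 19 higher and 0 lower, with a median of 0.11, and 1 and 1 without replicate 3. That gene was Gja5, the gap junction protein connexin 40, which read 8.03 against 8.56 and 8.23 in space and 8.20 and 7.66 against 8.65, 8.73 and 8.63 on ground (0.60 ± 0.17). Smooth muscle genes gave 1 of 12 higher and 0 lower, with Smtn at 0.51 ± 0.21 and a median of 0.30 that was 0.10, with 0 higher, without replicate 3.

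Genes of DNA replication lay on both sides of 0. Of 42 members, 34 lay above 0, with 13 higher (31%) and 4 lower (9.52%) at an unadjusted p below 0.05, with a median of 0.49. The lower genes included Orc2, Orc3 and Orc4 of the origin recognition complex, which marks the places where replication starts. Orc4 read 10.15 against 9.52 and 9.40 in space and 9.97 and 9.80 against 7.10, 8.96 and 7.86 on ground (-1.48 ± 0.41). Orc3 read 8.97 against 8.47 and 8.66 in space and 8.82 and 8.39 against 7.80, 8.17 and 7.97 on ground (-0.55 ± 0.15). The treated arrays lay lower within each regime in all 3 genes, and their differences without ground untreated replicate 3 were -1.16 (Orc2), -0.63 (Orc3) and -1.38 (Orc4). Orc1, Orc5 and Orc6 were at 0.27, -0.06 and 0.00.

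Rfc1, the large subunit of the clamp loader, read 8.75 against 8.28 and 8.12 in space and 7.90 and 8.43 against 7.44, 7.40 and 7.26 on ground (-0.71 ± 0.15). Its small subunits Rfc2, Rfc3 and Rfc5 lay on the other side of 0, at 0.77 ± 0.23, 0.68 ± 0.25 and 0.74 ± 0.26. Pold1, the catalytic subunit of polymerase delta, read 7.60 against 8.36 and 7.85 in space and 7.51 and 6.57 against 8.98, 8.33 and 8.35 on ground (1.15 ± 0.30).

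The helicase genes Mcm2, Mcm3 and Mcm7 were at 0.69 ± 0.23, 1.40 ± 0.60 and 0.95 ± 0.32, and Cdc45, which activates the helicase, at 0.69 ± 0.23. Mcm3 read 5.81 in ground untreated replicate 3 and 8.38 to 9.87 in the other arrays. Without that array the list median was 0.18, and 6 genes lay higher and 4 lower. The E2F site TTTCCCGC was found on either strand in 4 of 35 promoters of the list (11.4%) against 0.856% of all.

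Mitosis genes lay above 0 in 34 of 39 cases, with 6 higher (15.4%) and 1 lower at an unadjusted p below 0.05, with a median of 0.64. Without replicate 3 only 21 of 39 lay above 0, with 3 higher and 1 lower and a median of 0.09. Cdca8, a subunit of the chromosomal passenger complex, read 9.35 against 9.95 and 9.78 in space and 9.51 and 7.36 against 10.47, 10.12 and 9.82 on ground. The treated arrays lay above the untreated ones within each regime, at 1.28 ± 0.46 and at 0.58 without that array. Kif18b read 8.98 against 9.69 and 9.32 in space and 8.51 and 8.00 against 10.24, 10.00 and 9.55 on ground, and was at 1.00 without it. Smc4, a condensin subunit, read 9.49 against 9.55 and 8.74 in space and 9.44 and 7.94 against 7.60, 7.41 and 7.19 on ground. It was the lower gene, at -0.95 ± 0.36, and its space arrays overlapped. Incenp (0.50 ± 0.19), Aurka (1.06 ± 0.43), Bub3 (0.39 ± 0.17) and Cdc20 (1.75 ± 0.76) were the other higher ones.

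Many mitotic genes carry a cell cycle homology region and CCAAT boxes near their start, and the promoters of Cdca8 and Smc4 are shown because these genes lay on opposite sides of 0. Capitals mark the homology region TTTGAA and the box CCAAT on either strand in the 250 bases before the start (RefSeq, GRCr8), which share bases in the Cdca8 promoter.
Cdca8: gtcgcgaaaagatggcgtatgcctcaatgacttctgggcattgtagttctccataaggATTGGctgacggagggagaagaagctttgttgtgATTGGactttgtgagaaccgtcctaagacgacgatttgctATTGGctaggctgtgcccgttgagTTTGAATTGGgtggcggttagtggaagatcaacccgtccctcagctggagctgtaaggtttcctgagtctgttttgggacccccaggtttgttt
Smc4: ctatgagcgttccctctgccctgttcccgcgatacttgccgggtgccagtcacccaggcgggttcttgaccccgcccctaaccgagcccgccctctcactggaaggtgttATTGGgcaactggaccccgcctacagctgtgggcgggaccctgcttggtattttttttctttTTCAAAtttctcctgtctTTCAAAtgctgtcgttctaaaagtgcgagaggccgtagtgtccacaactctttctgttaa
The Cdca8 promoter (chr5:142483200-142483449, minus strand) held 1 homology region and 4 boxes, and that of Smc4 (chr2:155550012-155550261, plus strand) held 2 and 1. The homology region was found in 15 of 33 mitosis promoters (45.5%) against 16% of all, and the box in 24 of 33 (72.7%) against 34.3%.

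Chromatin assembly and silencing genes gave 2 higher and 2 lower of 30, with a median of 0.05 that was -0.01, with 2 higher and 1 lower, without replicate 3. Beside Chaf1b, the co-repressor gene Trim28, which zinc finger proteins of the KRAB class recruit, lay at 0.72 ± 0.22, with 1.09 on ground and 0.04 in space. The histone chaperone genes Supt16h and Asf1a lay at -0.78 ± 0.26 and -0.29 ± 0.12. DNA damage and repair genes gave 2 higher and 4 lower of 41, with a median of 0.00, and the same counts without replicate 3 at a median of -0.02. The nuclease gene Ercc1 was at 0.51 ± 0.13 and Nbn and Rad50, of the complex that senses breaks, at -0.68 ± 0.18 and -0.60 ± 0.26. Targets of p53 gave 2 higher and 3 lower of 21, with a median of 0.07, the p53 ligase gene Mdm2 at -0.68 ± 0.22 and Ddb2 at 0.40 ± 0.14. Without replicate 3 there were 2 higher and 0 lower, with a median of 0.19, and without ground untreated replicate 1 the median was -0.18. Apoptosis genes gave 1 higher and 0 lower of 24, with a median of 0.07, and the gene was Casp9. Leaving out replicate 3 gave 3 and 1.

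Of the 53 lists, the centrosome and cilium list had the largest share of lower members, with 14 of 34 lower (41.2% against the 5.79% of all named genes) and 0 higher at an unadjusted p below 0.05. It held 25 genes below 0 and had a median of -0.33, and without ground untreated replicate 3 it had 13 lower, 0 higher and a median of -0.23. A further 23 names of this list were not found among the named genes, so its shares cover only the measured members. Relative to the list's mean over 8 arrays, the treated ground arrays lay at -0.37, -0.23 and -0.46 and the untreated ones at 0.23 and 0.16, and in space the treated lay at 0.19 and 0.16 and the untreated at 0.31. The separation on ground was thus wider than that in space, where only 1 untreated array was measured.

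Nek1 read 7.22 against 6.43 and 6.43 in space and 5.55 and 5.97 against 4.90, 4.76 and 5.02 on ground, with a difference of -0.80 in space and -0.86 on ground. Cep83, which anchors distal appendages to the membrane beside Sclt1, read 8.40 against 8.21 and 7.66 in space and 8.74 and 8.02 against 6.50, 6.74 and 6.45 on ground (-1.33 ± 0.30). Pcm1, the scaffold of centriolar satellites, read 8.96 against 8.84 and 8.59 in space and 8.89 and 8.57 against 7.24, 7.56 and 7.19 on ground (-0.99 ± 0.24). In all 3 genes the treated arrays lay lower within both regimes. Ofd1, of centriole ends and satellites, was at -1.08 ± 0.29, and Cep63 and Cep57, of the centrosome, at -0.66 ± 0.18 and -0.70 ± 0.22.

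Transport along the cilium was split. Of the intraflagellar transport genes, Ift74, Ift80, Ift20 and Ift88 were at -1.56 ± 0.38, -1.03 ± 0.36, -0.66 ± 0.19 and -0.36 ± 0.14, while Ift27, Ift43, Ift46 and Ift172 were at 0.46 ± 0.23, 0.16 ± 0.14, 0.03 ± 0.14 and 0.01 ± 0.13. Of the Bardet-Biedl genes, Bbs4 and Bbs5 were at -0.69 ± 0.21 and -0.48 ± 0.16 and Bbs1 at 0.15 ± 0.11. Tmem67 of the transition zone was at -0.39 ± 0.12. Since this list was drawn up knowing that Sclt1 led the lower genes, its direction is not independent of that result.

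Enzymes that modify transfer RNA gave 2 higher and 11 lower of 41 at an unadjusted p below 0.05 (26.8% lower), with a median of -0.10. Alkbh8, which completes wobble uridine in selenoprotein transfer RNA, read 7.38 against 7.01 and 6.66 in space and 6.85 and 7.40 against 6.09, 6.07 and 5.76 on ground (-0.94 ± 0.20). Pus3, a pseudouridine synthase, read 7.92 against 7.50 and 7.46 in space and 8.14 and 8.08 against 7.23, 7.01 and 6.62 on ground (-0.90 ± 0.19). Tprkb, of the complex that makes threonylcarbamoyl adenosine, was at -0.80 ± 0.20, and Trit1, which adds isopentenyl from the mevalonate pathway, at -0.88 ± 0.27. Nsun6 and Trmt61a lay on the other side, at 0.54 ± 0.18 and 0.50. Without ground untreated replicate 3, 8 lay lower and 2 higher and the median was 0.04, so the median turned while Trmt13 stayed at -1.41, Alkbh8 at -0.72 and Pus3 at -0.83.

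The list of VPS13 and vesicle tethering genes gave 2 higher and 6 lower of 35 (17.1% lower), with a median of -0.10 that was -0.05, with 4 in each direction, without ground untreated replicate 3. Vps13b, the Golgi member of the Vps13a family, read 8.31 against 7.55 and 7.71 in space and 7.58 and 8.04 against 6.76, 7.36 and 6.85 on ground (-0.77 ± 0.18). Exoc2, of the exocyst that tethers secretory vesicles, was at -0.90 ± 0.22, and Vps35, the core of the retromer that returns cargo from endosomes, at -1.07 ± 0.32. Cog8 of the Golgi tether was at 0.59.

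Zinc finger genes whose symbols begin with Zfp, many of which are DNA-binding repressors, gave 7 higher and 34 lower of 161 (4.35% and 21.1%), with a median of -0.12. Leaving out ground untreated replicate 3 gave 4 and 33, with a median of -0.11. Zfp317 read 8.00 against 6.98 and 6.87 in space and 7.32 and 6.89 against 4.90, 5.22 and 5.55 on ground. Zfp347 read 7.27 against 6.18 and 5.56 in space and 6.59 and 6.16 against 4.53, 5.41 and 4.76 on ground. Zfp445, which guards imprinted loci, read 6.83 against 6.09 and 5.33 in space and 5.51 and 5.50 against 4.27, 4.74 and 4.63 on ground (-1.02 ± 0.19). All 3 lay lower without overlap within a regime, and ground levels were below space levels for Zfp445 in both treatments. Zfp709l1 was at -0.64 ± 0.12. These genes share finger sequences, so probe sets of related members may not be independent.

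Cytosolic heat shock genes went both ways, with 5 higher (15.2%) and 4 lower (12.1%) of 33 and a median of 0.03. The counts without replicate 3 were 3 and 2, with a median of 0.08. Small heat shock genes were among the higher ones. Hspb1 read 10.08 against 10.96 and 11.03 in space and 11.30 and 10.68 against 11.70, 11.34 and 11.90 on ground (0.75 ± 0.19), and Hspb2 was at 0.47 ± 0.14. Genes of the large chaperones were among the lower ones, with Hspa4 at -0.79 ± 0.23, the co-chaperone gene Chordc1 at -0.76 ± 0.23 and Hsp90aa1 at -0.50 ± 0.20. Proteasome and atrophy ligase genes gave 5 higher (14.7%) and 1 lower of 34, with a median of 0.11. The higher ones were genes of the regulatory particle, among them Psmd3, Psmd8 (0.37 ± 0.14) and Psmd2 (0.33 ± 0.13), while the deubiquitinase subunit Psmd14 was at -0.46 ± 0.17. Without replicate 3, 1 lay higher and 0 lower, with a median of 0.19.

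In the endoplasmic reticulum list 0 lay higher and 1 lower of 27, the chaperone gene Dnajb9 (-0.80 ± 0.27), and the median of -0.15 was 0.05, with 0 in either direction, without replicate 3. The integrated stress response list gave 0 higher and 1 lower of 28, which was Slc7a11, with a median of 0.08, and 0 and 0 without replicate 3. Its median was -0.036 without ground untreated replicate 1.

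Of 38 genes of mitochondrial dynamics and biogenesis, 7 lay lower (18.4%) and 0 higher, with a median of -0.16 that was -0.06, with 5 lower, without ground untreated replicate 3. Apool and Apoo, of the complex that shapes cristae, lay at -0.52 ± 0.12 and -0.51 ± 0.16. Apool read 8.16 against 7.76 and 7.81 in space and 7.44 and 7.24 against 6.67, 6.83 and 6.75 on ground, lower with treatment in each regime. Mterf3, a regulator of mitochondrial transcription, was at -0.72 ± 0.19 and Tfb2m, which opens mitochondrial promoters, at -0.66 ± 0.17.

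Oxidative phosphorylation genes gave 4 higher and 1 lower of 51, with a median of 0.08, and 2 and 1 without replicate 3 at a median of 0.13. Their median was -0.005 without ground nanoceria replicate 1. Cox7b, of complex IV, read 11.95 against 11.87 and 11.86 in space and 12.10 and 11.89 against 11.21, 11.01 and 11.04 on ground (-0.61 ± 0.18), and Uqcrc1, of complex III, was at 0.71 ± 0.27. Mitochondrial ribosomal protein genes gave 4 higher and 2 lower of 66 (2 and 1 without replicate 3), with a median of 0.06, Mrpl1 at -0.62 ± 0.19 and Mrps34 at 0.61 ± 0.22. Leaving out ground nanoceria replicate 1 turned the median of this list to -0.045.

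Translation factors gave 1 higher and 8 lower of 33 (24.2% lower), with a median of 0.05, and 1 and 2 without ground untreated replicate 3. The cap-binding gene Eif4e read 9.49 against 8.81 and 8.81 in space and 9.08 and 8.95 against 8.52, 8.71 and 8.27 on ground (-0.58 ± 0.13). Eif2s1, the regulated subunit of the factor that delivers initiator transfer RNA, was at -0.66 ± 0.21 and Eif6, which keeps ribosomal subunits apart, at 0.43 ± 0.15. Cytosolic ribosomal protein genes gave 0 higher and 1 lower of 75, with a median of -0.02 that was -0.06 without replicate 3, -0.09 under cyclic loess and 0.00 with equal array medians. Splicing factors gave 3 higher and 4 lower of 40, with a median of 0.05, Rbm39 at -0.96 ± 0.27 and Sf3a1 at 0.44 ± 0.13. Leaving out ground untreated replicate 3 gave 7 lower and 1 higher.

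Genes of glycolysis and hypoxia lay above 0 in 25 of 35 cases, with 0 higher and 1 lower at an unadjusted p below 0.05 and medians of 0.56 on ground and -0.12 in space. The lower gene was Hif1a, the oxygen-regulated subunit (-0.76 ± 0.26). The list median was 0.16, and 0.39 with 0 in either direction without replicate 3. It was 0.08 without ground nanoceria replicate 2. Relative to the list's mean over 8 arrays, that array lay at 0.51 and the other treated ground arrays at -0.47 and -0.46. The untreated ground arrays lay at -0.83 and -0.34, so the groups overlapped on ground. Collagen and elastic fibre genes gave 4 higher (13.8%) and 0 lower of 29, with a median of 0.15, and 0 higher without ground untreated replicate 3. They were Col18a1 (0.39 ± 0.13), Mfap5 (0.60 ± 0.21), Loxl1 (0.37 ± 0.15) and Fbln1 (0.70 ± 0.30). Matrix proteases and their inhibitors gave 3 higher and 0 lower of 31 (1 and 1 without replicate 3), with a median of 0.10 and the membrane protease gene Mmp14 at 0.34 ± 0.14.

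Proteoglycan genes gave 2 higher and 1 lower of 27 (2 and 0 without replicate 3), with a median of 0.00. Sdc3 was at 0.52 ± 0.14 beside Sdc1, and the small leucine-rich proteoglycan gene Ogn read 8.70 against 8.18 and 7.39 in space and 7.45 and 8.31 against 6.71, 6.08 and 4.28 on ground (-1.73 ± 0.55). The treated ground arrays of Ogn lay below the untreated ones but far from each other. Growth factor and TGF-beta genes gave 1 higher and 1 lower of 44 (1 and 3 without replicate 3), with a median of 0.03, Igfbp6 at 0.42 ± 0.16 and Fgf7, a growth factor for epithelium, at -1.48 ± 0.48.

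Inflammation and interferon genes gave 3 higher and 3 lower of 35, with a median of 0.03, and 2 and 2 without replicate 3 at a median of 0.01. Il6, an interleukin that muscle cells secrete, read 8.93 against 8.11 and 8.46 in space and 8.63 and 8.21 against 7.51, 7.70 and 6.88 on ground. It lay lower within each regime (-0.91 ± 0.22), while Rela, a subunit of NF-kappa B that activates Il6, was at 0.44 ± 0.14. Clock genes gave 0 higher and 2 lower of 17, Clock at -0.88 ± 0.28 and Nr1d2 at -0.62 ± 0.21, with a median of -0.02. Without replicate 3 there were 0 and 1, with a median of 0.11.

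**Figure D2:**
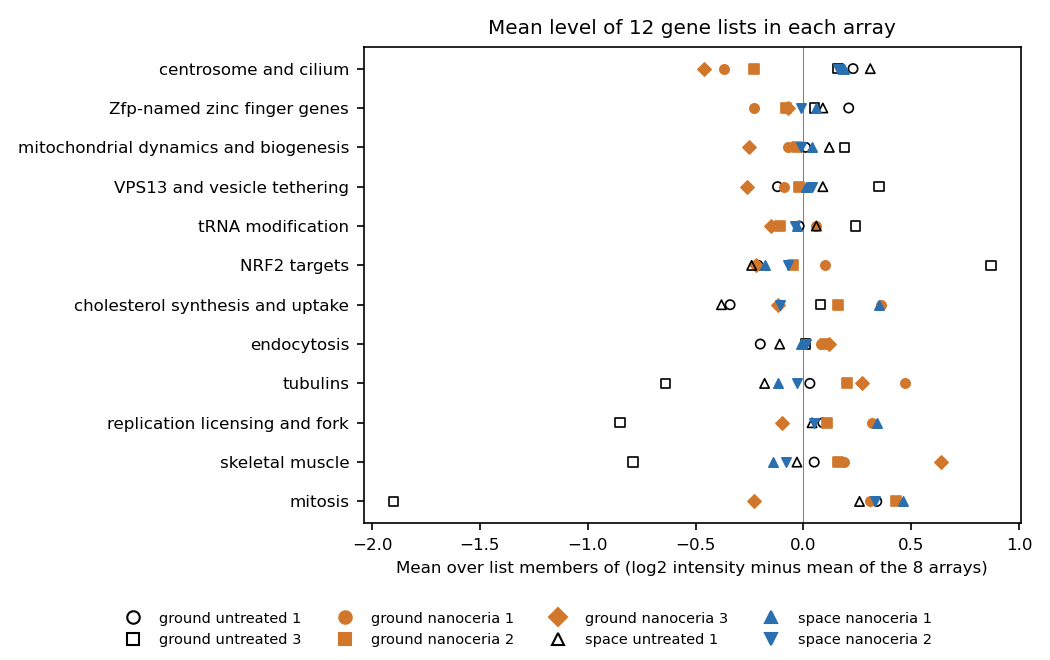
Each row is a gene list and each point an array, as the mean over members of log2 intensity minus each gene's mean over the 8 arrays. Ground untreated replicate 3 (open square) lies at -1.9 for mitosis and 0.87 for NRF2 targets, away from the other 7 arrays, but at 0.16 for the centrosome and cilium list and 0.05 for the zinc finger list, among the other arrays.

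Whether the nanoceria difference differed between the regimes was tested by the interaction, the difference in space minus that on ground. With limma, 0 genes passed after adjustment, and 214 (1.42%) and 143 (0.951%) had a higher or lower difference in space at an unadjusted p below 0.05. The median SE of an interaction was 0.35 against 0.17 for the difference over both regimes. Atp2a1, the calcium pump of fast muscle, read 7.75 untreated against 7.14 and 7.29 in space, and 7.14 and 6.85 against 8.32, 8.21 and 8.90 on ground. It lay lower with nanoceria in space (-0.54) and higher on ground (1.48), with an interaction of -2.02 ± 0.40.

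Ccdc62 read 5.48 against 5.55 and 5.89 in space and 6.68 and 5.97 against 3.95, 4.57 and 4.09 on ground, with an interaction of 2.37 ± 0.47. Alcam, a cell adhesion molecule, read 8.47 against 8.76 and 8.52 in space and 8.62 and 9.17 against 7.28, 7.37 and 7.51 on ground (1.68 ± 0.34), and Hltf, a helicase of stalled forks, had 1.84 ± 0.42. For these 3 genes the treated ground arrays were low. The other arrays of Alcam read 8.47 to 9.17, while for Ccdc62 the untreated ground arrays lay above all space arrays. The remaining genes with the smallest p were Xdh, which makes urate and superoxide (1.40 ± 0.32), the transsulfuration gene Cth (-1.30 ± 0.30), Fam161a (-1.52 ± 0.36) and Rab38 (-1.16 ± 0.27). Each had an adjusted p of 1.

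Within the regimes alone, limma gave 0 genes after adjustment on ground (lowest adjusted p = 0.0892) and 0 in space, where every adjusted p was 1. Without ground untreated replicate 1, the ground comparison rests on untreated replicate 3 alone. That array stood apart in several lists, and it is then assumed to vary like the other groups. In terms of an unadjusted p below 0.05, the ground comparison had 4.87% of named genes higher and 6.56% lower, and the space comparison 0.638% in each direction. The space comparison rests on 1 untreated array, and its median SE was 0.28 against 0.21 on ground.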

How the data were processed

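RNA of H9c2 cells was measured on 8 rat Clariom S Pico arrays. The authors deposited an intensity for each probe set on each array. Per the submitters' processing notes these come from RMA, a method of background correction, quantile normalization and probe summary. Which software ran it, and how, is not given in the sources used. The deposited intensity values were linear (8.63 to 19506), so log2 was taken without a pseudocount. RMA gives no detection call, and array medians ran from 107 to 117. Of 23188 probe sets, 15049 carried 1 gene symbol, and 12 shared it with a brighter one that stood for the gene. Gene identifiers of all were found in the RefSeq table.

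Differences were fitted in limma 3.58.1 (R 4.3.3) with Benjamini-Hochberg adjustment over all probe sets at 0.05. The main comparison came from a model with terms for regime and treatment, which left 5 degrees of freedom. A model with 1 mean per group, which left 4, gave the regimes and their interaction, with the lone untreated space array assumed to vary like the others. On simulated data with 200 changed of 23188 probe sets, the additive fit recovered 77% at 2-fold and 100% at 4-fold, with 9 and 8 false calls. The simulated noise was independent between genes and arrays, with no regime difference and no array that stood apart. These shares therefore do not carry over to the arrays measured here.

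The comparison and its 53 gene lists (1655 genes) were chosen with earlier results of these data known, and the lists include ones built around leading genes, so their counts are no independent support. The result of 1 list is not reported here. Named genes were the 15 of smallest p in each direction, the 10 in each direction with the largest smaller regime difference, up to 4 of smallest p per list, 11 measured genes of interest to the redox and sterol question, and the 4 of smallest interaction p in each direction. Promoters came from RefSeq on GRCr8, and the array's own reference was another build. The alternatives were cyclic loess, array medians set equal, a filter to the brighter 66.7%, other weights and terms, the replicate block and leaving out each array. Without the untreated space array, only the ground comparison remains.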

Additional observations from a re-analysis of the deposited data

Results flagged for a closer look

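A set of results lay in opposite directions in the regimes. For the lists the difference between regimes was not tested, and each was picked because every treated array lay on 1 side of the untreated arrays on ground and on the other side in space. As differences of list means, ground and space gave 0.7 and -0.082 for skeletal muscle, 0.427 and -0.144 for the acetylcholine receptor and triad, 0.254 and -0.021 for integrins and focal adhesion, and 0.266 and -0.03 for collagens and elastic fibre. Matrix proteases gave 0.11 and -0.097, fibroblast markers 0.299 and -0.078, and leukocyte markers 0.036 and -0.043. The ground value rests in part on ground untreated replicate 3, and against replicate 1 alone it was 0.281 for skeletal muscle, 0.372 for the receptor and triad, 0.091 for integrins and focal adhesion, 0.297 for collagens and elastic fibre, 0.108 for matrix proteases, 0.222 for fibroblast markers and 0.035 for leukocyte markers.

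Among named genes the same pattern was seen for Atp2a1 (1.482 on ground and -0.535 in space), Cth (0.784 and -0.511), Fam161a (0.619 and -0.897) and Rab38 (0.186 and -0.97), and the other way round for Xdh (-0.618 and 0.783), Fth1 (-0.315 and 0.234), Ccdc62 (-2.123 and 0.244) and Alcam (-1.507 and 0.171). Their interactions had an adjusted p of 1 with limma. Of all named genes, 3.4% and 2.06% showed these opposite patterns without overlap.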

How the results depend on the processing

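The brightness filter and another variance model, also among the alternatives, cannot alter a gene's difference, and many of the genes were picked for a small p. The count of values that kept direction is therefore no measure of how firm the differences are. Of 4679 values of 294 single genes over all alternatives, which include every gene given a difference over both regimes, 4621 kept their direction and 58 turned, in 18 genes. With 1 array left out, these ran from -0.063 to 0.086 (Sod1), -0.032 to 0.237 (Sod2), -0.093 to 0.336 (Cidec), -0.126 to 0.195 (Adipoq), -0.601 to 0.518 (Hmox1), -0.606 to 0.012 (Nqo1), -0.315 to 0.009 (Fth1), -0.02 to 0.124 (Lep), -0.15 to 0.039 (Epcam), -0.044 to 0.063 (Ift172), -0.082 to 0.105 (Ift46), -0.352 to 0.421 (Lss), -0.286 to 0.796 (Orc1), -0.259 to 0.072 (Orc5), -0.108 to 0.073 (Orc6), -0.42 to 0.109 (Sc5d), -0.201 to 0.209 (Sun1) and -0.174 to 0.225 (Syne3). Turned values were -0.066 (Sod1), -0.013 (Ift46), -0.025 (Orc6) and -0.001 (Syne3) under cyclic loess, 0.001 (Sun1) with equal medians, -0.002 (Syne3) without a regime term, and -0.035 (Ift46), 0.161 (Lss) and -0.062 (Syne3) with the replicate block. Array weights gave -0.004 (Sod1), 0.023 (Hmox1), -0.001 (Adipoq), -0.041 (Ift172), -0.002 (Ift46), 0.021 (Lss), -0.029 (Orc6), 0.073 (Sc5d) and 0.077 (Sun1), and equal weight of the regimes -0.01 (Ift172), 0.055 (Lss), -0.011 (Orc6) and 0.011 (Sun1). All 8 genes named for their interaction kept its direction under cyclic loess and with 1 array left out. Over both regimes, 874 probe sets lay higher and 1359 lower at an unadjusted p below 0.05. Whether ground replicate numbers pair the arrays could not be decided. Deviations from the group mean of same-numbered arrays correlated at -0.296 and -0.348. With 2 untreated ground arrays those deviations mirror each other by construction, so these are not separate checks. With the replicate block the counts were 445 and 895, and 0 passed after adjustment. With equal weight of the regimes 515 were higher, and without a regime term 891 were lower. On ground, 0 probe sets passed after adjustment but 167 did without ground untreated replicate 1, which leaves 1 untreated ground array. In space, 164 and 177 became 94 and 72 among the brighter probe sets, and lower ones ran from 100 (without space nanoceria replicate 2) to 248 with 1 array left out. Genes not overlapping in both regimes ran from 1302 to 2049 (higher, from 963) and from 1108 to 1686 (lower, from 944) with 1 array left out, where fewer arrays must be apart, the highest without ground untreated replicate 1. Of 583 list medians, 551 moved by less than the spread between arrays, but 64 took the other sign, in 28 of 53 lists. The limits are the 3 untreated arrays, a single one of them in space, the unknown background, and the shared scaling of all arrays by the authors.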
